A study of Araneus ventricosus with 24 samples.

Results

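The transcripts described here are those annotated as glutathione S-transferases (GSTs), as enzymes of glutathione synthesis or as gamma-glutamyltranspeptidases in the spider Araneus ventricosus. They were found as transcript clusters of the deposited count table whose closest protein in the NCBI non-redundant (NR) or Swissprot database has one of these names in its description. The search gave 61 of 142219 clusters. For 46 of them the closest NR protein came from a spider, and these are called the members below. The other 15 had their closest NR protein in another kind of animal or a protist, held 234 counts in all 20 libraries together, and are described apart at the end.

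Glutathione is a tripeptide with a free thiol. It is made in the cytosol by glutamate-cysteine ligase, an enzyme of a catalytic and a modifier subunit, and then by glutathione synthetase. GSTs join it to electrophilic compounds, and gamma-glutamyltranspeptidase (GGT) on the outside of the cell membrane cleaves it and its conjugates. In animals the thiol binds cadmium and other soft metal ions, and the conjugates leave the cell through multidrug resistance-associated proteins. GSTs are sorted by sequence into classes such as Mu, Theta, Delta, Omega and Sigma.

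The libraries were made from total RNA of the ampullate gland, which spins dragline silk, and of the cerebral ganglia. The spiders had been exposed for 30 days to cadmium plus lead, to lead or to cadmium, or were untreated. For 4 groups a deposited column repeated another one of its group value for value and was dropped, so each tissue had 2 combined, 2 lead, 3 cadmium and 3 untreated libraries. The labels used here do not give the dose, the route, the sex or age of the spiders, or whether a library came from 1 animal or a pool, so p-values measure the spread between these libraries. In bulk tissue, fewer cells of a type and less RNA per cell cannot be told apart.

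The 20 libraries held between 14834065 and 20954478 counts. The deposited values implied fragments of 277 to 278 bases in gland libraries with lead and 247 to 273 bases in those without. In the ganglia the lengths were 271 to 281 and 248 to 262 bases, so lead and whatever set the fragment length cannot be told apart. No label used here names a batch of library preparation. Cadmium against untreated, and combined against lead, do not cross this split. However, cadmium gland 2, at 273 bases, stood near the glands with lead. Clusters matching the mitochondrial genome took 14.4 to 16.9% of the ganglia counts with lead and 21.1 to 40.8% without, the highest being untreated ganglia 3. The 107 clusters of muscle proteins summed to between 1358 and 6158 CPM, counts scaled to library size, in the gland libraries and between 25325 and 53359 CPM in the ganglia libraries. The 20 major ampullate spidroin clusters, the silk proteins that define the gland, summed to between 2456 and 29982 CPM in the exposed glands and to 89.3, 339 and 8500 CPM in untreated glands, and in the 10 ganglia libraries they ranged from 255 to 4764 CPM. In untreated glands 1 and 2 the transcripts that define the labelled tissue thus stood no higher than in most ganglia libraries. Aciniform spidroin clusters summed to at least 37253 CPM in all 3 untreated glands, against at most 819 CPM in any ganglia library. In combined glands they summed to 662 to 3538 CPM. Pyriform spidroin clusters summed to 470 to 3279 CPM there and to 4592 to 28793 CPM in untreated glands. The part of this silk gland mixture in the member levels was not tested.

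Of the 46 members, 23 were GSTs of class Mu, and 21 of these had the same closest protein, a GST Mu 1 of the velvet spider Stegodyphus mimosarum. Reads from such similar clusters could have been divided between them by the authors' counting, so single Mu clusters are uncertain while their sum is less so. Class Theta had 1 member and class Kappa 1, and the words Delta, Omega and Sigma stood in no description. A further 3 members matched GST 1 isoforms C or D of the mosquito Anopheles gambiae, which belong to class Delta in that insect. Another group of 3 matched the Caenorhabditis elegans GST 7 or the prostaglandin D isomerase orthologue, an enzyme of class Sigma in vertebrates, and 1 of these, cluster 39365, had its closest protein in A. ventricosus itself. The rest were 3 microsomal GSTs, which are membrane proteins, 1 protein with a GST C-terminal domain beside a methyltransferase domain, 7 GGTs, 2 catalytic and 1 modifier subunit of glutamate-cysteine ligase, and 1 glutathione synthetase. This sorting of clusters without a class word was made with the values known. Members are called by the last number of their deposited name, so that 46668 stands for Cluster-16698.46668.

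By FPKM, the highest members were GST 1 clusters and Mu 46668. FPKM is scaled to library size and transcript length, in the deposited values the length less the implied fragment length, which raises short clusters. GST 1 46115 and 58114 had 579 and 565 bases and Mu 46668 had 1243 bases, so their order is uncertain. GST 1 46115 averaged 219 ± 120 FPKM in the 10 gland libraries and 359 ± 119 FPKM in the 10 ganglia libraries (SD). GST 1 58114 averaged 105 ± 48.3 FPKM in gland and 146 ± 32.5 FPKM in ganglia. Mu 46668 averaged 51.2 ± 22.6 FPKM in gland and 242 ± 80.6 FPKM in ganglia, so that it was the fourth highest member in the gland and the second in the ganglia. The highest GGT by mean over both tissues, 54345, stood at 30.8 ± 9.32 and 30.9 ± 6.35 FPKM in gland and ganglia. In the gland 14 of the 46 members, and in the ganglia 13, averaged 10 FPKM or more. Glutathione synthesis stood lower than the abundant transferases: over the 20 libraries the catalytic subunit averaged 13.5 FPKM for the short cluster 57423 and 7.52 FPKM for 49733, the modifier subunit 29022 averaged 5.76 FPKM and glutathione synthetase 55772 averaged 5.65 FPKM.

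**Figure D1:**
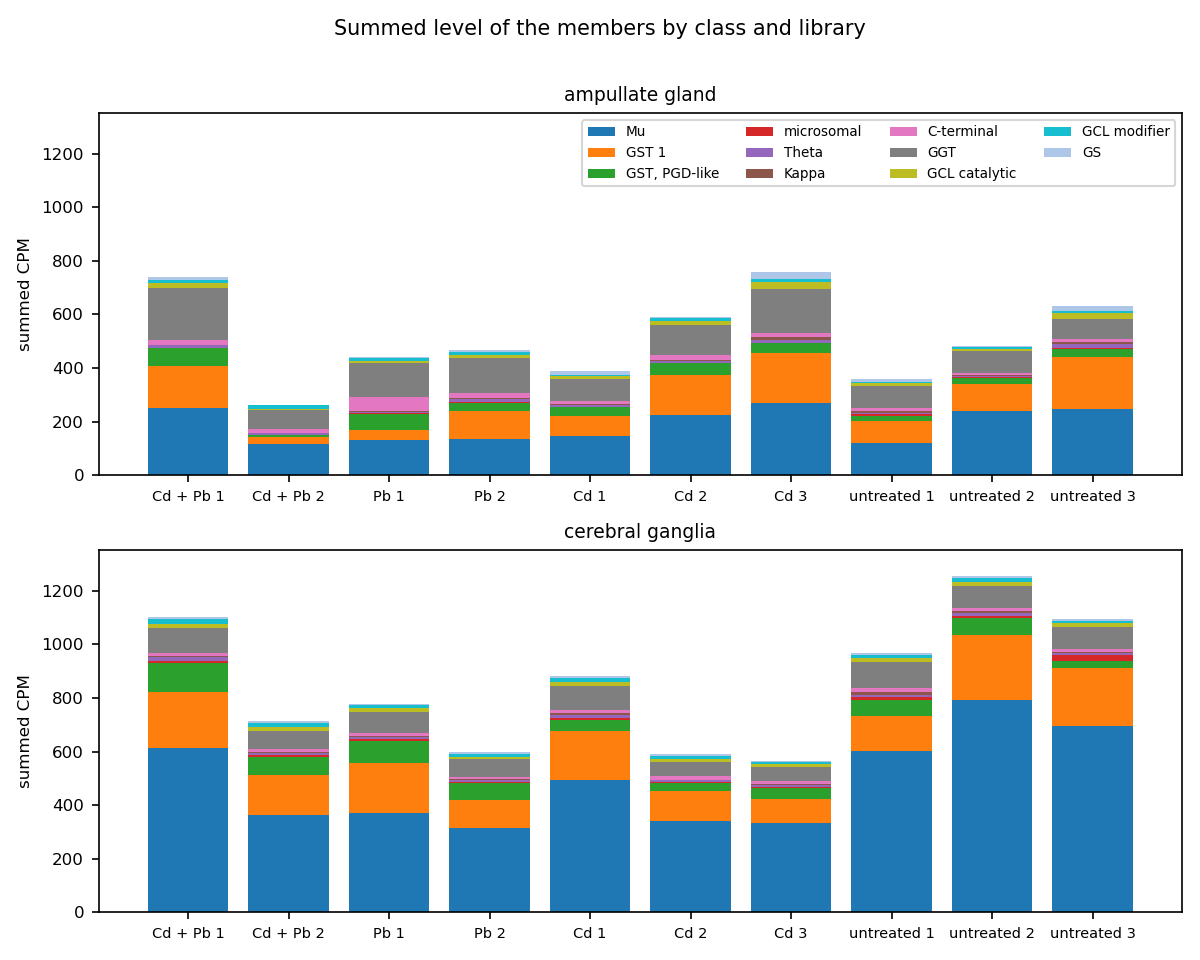
Stacked bars give the summed level of the 46 members in CPM by class and library, in ampullate gland (above) and cerebral ganglia (below), each on the scale of its own tissue; PGD-like stands for prostaglandin D isomerase-like, GCL for glutamate-cysteine ligase and GS for glutathione synthetase. Class Mu summed to between 313 and 790 CPM in ganglia libraries. Untreated ganglia held 604 to 790 CPM of class Mu, a range that combined ganglia 1 reached with 615 CPM.

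In the ganglia, lead exposure went with lower levels of 4 transferases, 3 of class Mu and 1 microsomal, and none was called higher. Counts were tested with edgeR's quasi-likelihood test, with p-values adjusted by Benjamini-Hochberg over all clusters of the tissue and called below 0.05. Of the 42 members tested in the ganglia, 4 were lower with lead, where 2.24% of all 38659 clusters tested were called lower and 4.92% in either direction. Levels from here to the comparison of tissues are CPM on the scale of one tissue.

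Mu 19693 had 7.44 and 8.25 CPM in lead ganglia, against 44.8, 58.5 and 39.9 CPM in untreated ganglia. The groups did not overlap, and the change was -2.60 ± 0.42 on the log2 scale (SE; edgeR adjusted p = 0.0192). Mu 42413, one of the 2 Mu clusters with another closest protein, had 29.5 and 20.5 CPM in lead ganglia, against 58.8, 78.5 and 79.4 CPM in untreated ganglia. Its lead libraries lay below all untreated ones, with a log2 change of -1.53 ± 0.33 (edgeR adjusted p = 0.0342). Mu 10699 had 1.22 and 0.777 CPM in lead ganglia, against 4.11, 4.34 and 9.80 CPM in untreated ganglia, where untreated ganglia 3 stood high. Its log2 change was -2.60 ± 0.60 (edgeR adjusted p = 0.0396). Microsomal GST 17339 had 0.842 and 0.820 CPM in lead ganglia, against 3.65, 3.41 and 13.4 CPM in untreated ganglia, the last again from ganglia 3, the library with the highest mitochondrial share. The log2 change was -3.02 ± 0.73 (edgeR adjusted p = 0.0442). Without untreated ganglia 3 it was -2.09 (edgeR adjusted p = 0.0858), and of the 10 libraries only cadmium ganglia 3 and untreated ganglia 2 could be left out with the call kept (edgeR adjusted p between 0.0446 and 0.315 over the 10). Each of the 4 calls needed both lead libraries: without either, no member was called. The call of 42413 was also lost without cadmium ganglia 2 and without any 1 of the untreated libraries (edgeR adjusted p = 0.0519, 0.0522, 0.0578 and 0.0781), and that of 10699 without untreated ganglia 1 or 3 (edgeR adjusted p = 0.051 and 0.0844). Mu 19693 kept its call without any 1 cadmium, combined or untreated library (edgeR adjusted p at most 0.042). Without untreated ganglia 3, as without untreated ganglia 1, 1 member was called. On all ganglia libraries the count was 8 with DESeq2 and 7 with no filter on low counts, against 2 after a length trend was removed, 1 with a block for the replicate number and 1 with only the compared groups in the fit, and every call was of a lower level. An unadjusted p below 0.05 was found for 12 members, beside 24.9% of all clusters.

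Mu 46668, the most abundant Mu cluster, was lower in every exposed ganglia library without passing the test. It had 286 and 127 CPM with both metals, 138 and 154 CPM with lead and 240, 200 and 175 CPM with cadmium, against 326, 423 and 419 CPM in untreated ganglia. All 7 exposed libraries lay below the 3 untreated ones, as for 4 of the 42 members tested, a share not counted over all clusters. The log2 changes were -0.91 ± 0.36 for both metals, -1.41 ± 0.36 for lead and -0.93 ± 0.31 for cadmium (edgeR adjusted p = 0.17, 0.0529 and 0.62). These 3 comparisons share their untreated libraries. The second microsomal cluster with a MAPEG domain, the domain of membrane-bound transferases, was 83736, at 0.0936 and 0.0864 CPM in lead ganglia, against 0.652, 0.620 and 3.03 CPM in untreated ganglia. Its log2 change was -3.88 ± 1.10 (edgeR adjusted p = 0.0673).

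Across the members, 17 of the 42 tested had both lead ganglia below all untreated ones and 5 had both above. Of all clusters, 21.3% and 23.4% did so. The 5 members above were Mu 65611, 78637, 59058 and 53548 and GST 39365, and none of them was called. Mu 65611 had 122.34 and 91.8 FPKM in lead ganglia, against 51.55, 62.31 and 20.97 FPKM in untreated ganglia. GST 39365 had 121.5 and 113.25 FPKM in lead ganglia, against 65.47, 75.7 and 19.87 FPKM in untreated ganglia. The median log2 change was -0.64 over the members tested and -0.05 over all clusters tested.

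**Figure D2:**
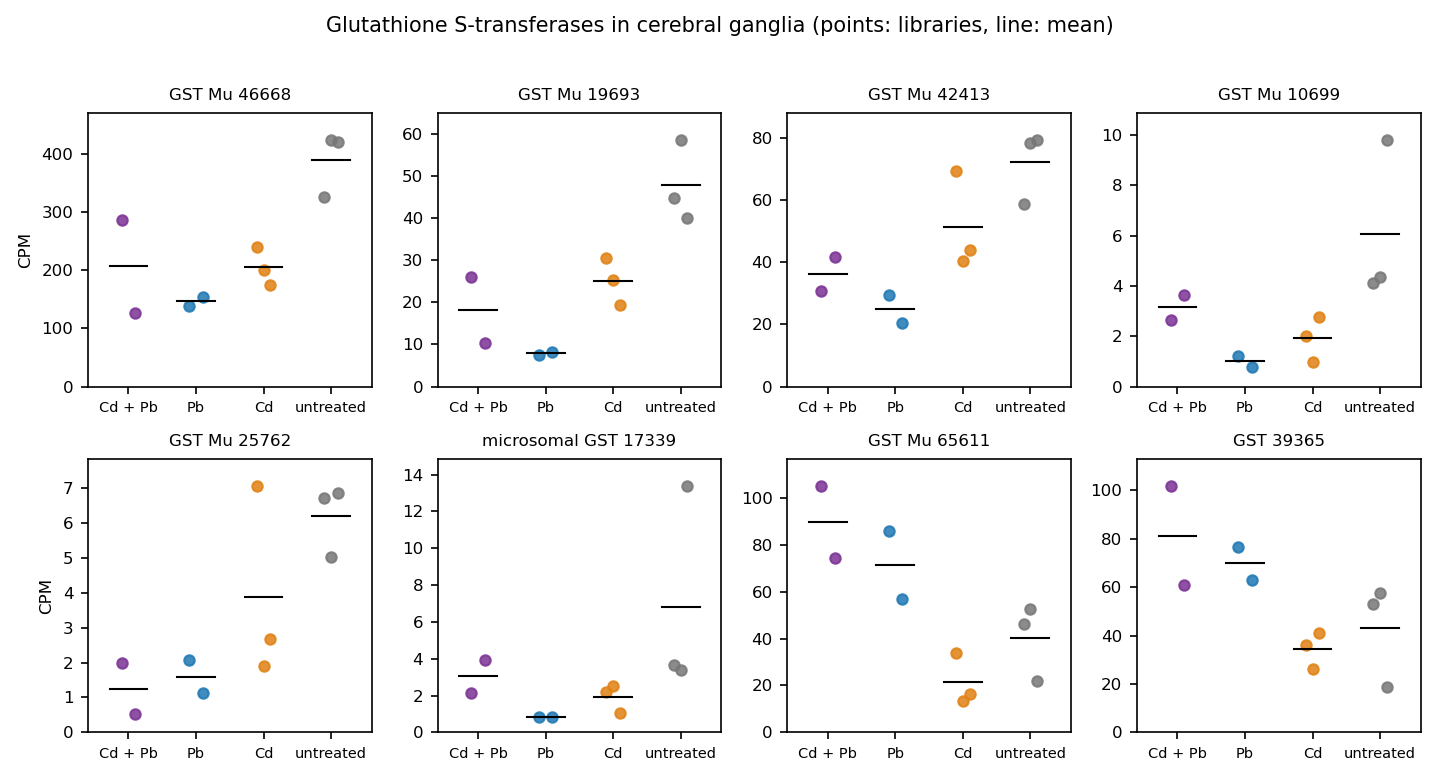
Points give the CPM of each cerebral ganglia library for 8 transferases, by exposure to cadmium plus lead (Cd + Pb), lead (Pb), cadmium (Cd) or none, with group means as lines; each panel has its own axis from 0. In 46668, 19693 and 10699 all exposed libraries lie below the untreated ones, while 65611 and 39365 are higher in the libraries with lead.

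With cadmium alone no member was called in the ganglia, nor was any of the 38659 clusters (0%) by edgeR at an adjusted p below 0.05. At an unadjusted p below 0.05 there were 9 members, all lower, and 7.62% of all clusters. The 9 members with all cadmium libraries below all untreated ones stood beside 5.96% of all clusters, and the 0 members with all above beside 5.39%. The median log2 change was -0.64 over the 42 members tested and -0.02 over all clusters tested. Of the 9, Mu 19693 had 30.6, 25.3 and 19.3 CPM in cadmium ganglia, against 44.8, 58.5 and 39.9 CPM in untreated ganglia. The groups did not overlap (log2 change -0.93 ± 0.34, edgeR adjusted p = 0.623). Cluster 51093, which matched the prostaglandin D isomerase orthologue, had 0.306, 0.747 and 0.209 CPM in cadmium ganglia, against 1.63, 1.61 and 1.56 CPM in untreated ganglia. The groups were again apart (log2 change -1.90 ± 0.53, edgeR adjusted p = 0.62). Summed over class Mu, cadmium ganglia had 493, 342 and 333 CPM, below the 604, 790 and 696 CPM of untreated ganglia.

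With both metals no member was called in the ganglia, where 1.06% of all clusters were, and members moved in both directions. At an unadjusted p below 0.05 edgeR gave 8 members, beside 22.1% of all clusters, and DESeq2 called 2, both lower. Mu 19693 had 26.0 and 10.3 CPM in combined ganglia, against 44.8, 58.5 and 39.9 CPM in untreated ganglia. Its libraries did not overlap (log2 change -1.40 ± 0.40, edgeR adjusted p = 0.0875). Mu 25762 had 1.98 and 0.514 CPM in combined ganglia, against 6.72, 5.02 and 6.85 CPM in untreated ganglia, again without overlap (log2 change -2.33 ± 0.71, edgeR adjusted p = 0.102). Mu 65611 went the other way, with 105 and 74.3 CPM in combined ganglia, against 46.2, 52.4 and 22.1 CPM in untreated ganglia. Both combined libraries lay above all untreated ones (log2 change 1.15 ± 0.46, edgeR adjusted p = 0.173). The spider's own GST 39365 had 102 and 60.9 CPM in combined ganglia, against 53.0, 57.4 and 18.9 CPM in untreated ganglia, with untreated ganglia 3 far below its group (log2 change 0.92 ± 0.43, edgeR adjusted p = 0.247). Mu 53548 had 14.7 and 9.06 CPM in combined and 9.41 and 8.29 CPM in lead ganglia, against 6.46, 7.75 and 4.36 CPM in untreated ganglia. The libraries with lead lay above the untreated ones (log2 changes 0.94 ± 0.34 and 0.51 ± 0.34, edgeR adjusted p = 0.143 and 0.378). Mu 78637, a minor cluster, had 4.32 and 2.71 CPM in combined and 3.79 and 2.68 CPM in lead ganglia, against 1.5, 1.98 and 2.33 CPM in untreated ganglia, also without overlap (log2 changes 0.86 ± 0.47 and 0.74 ± 0.47, edgeR adjusted p = 0.31 and 0.357).

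Of the 42 members, 10 had both combined ganglia below all untreated ones and 7 above, beside 18.9% and 20.5% of all clusters. The median log2 change was -0.05 over the members tested and -0.06 over all clusters.

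Between the metals no member was called in the ganglia, and 2 Mu clusters had the smallest adjusted p in their comparison. Mu 65611 had 105 and 74.3 CPM with both metals and 86.0 and 56.9 CPM with lead, against 33.9, 13.5 and 16.4 CPM with cadmium. Both groups with lead lay above all cadmium libraries. The log2 difference was 2.08 ± 0.46 for combined over cadmium (edgeR adjusted p = 0.0619) and 1.75 ± 0.46 for lead over cadmium (edgeR adjusted p = 0.125), and these comparisons share the cadmium libraries. Mu 19693 had 7.44 and 8.25 CPM with lead, against 30.6, 25.3 and 19.3 CPM with cadmium, without overlap (log2 difference -1.68 ± 0.40, edgeR adjusted p = 0.104). Over all clusters 0.908% were called between combined and cadmium and 0.305% between lead and cadmium. At an unadjusted p below 0.05 there were 8 members in each of these comparisons, beside 17.8% and 15.7% of all clusters. DESeq2 called 3 members, all higher, between combined and cadmium, and 1 higher and 1 lower between lead and cadmium. Midgut and digestive enzyme clusters, 196 in all, summed to 6618 to 8761 CPM in combined, 4958 to 5874 CPM in lead, 1874 to 3129 CPM in cadmium and 1717 to 6922 CPM in untreated ganglia, and their part in these levels was not tested.

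Combined against lead, which does not cross the split in fragment length, gave no call among members or among all clusters (0%) with edgeR. At an unadjusted p below 0.05 there were 5 members, beside 5.80% of all clusters, and DESeq2 called 0. All 19 members whose groups were apart had both combined libraries above both lead libraries. Of all clusters, 19.6% had them above and 21.9% below. Summed over all members, combined ganglia had 1102 and 715 CPM and lead ganglia 777 and 597 CPM, which overlap. The median log2 difference was 0.41 over the members and -0.01 over all clusters. Mu 19693 had 26.0 and 10.3 CPM with both metals, against 7.44 and 8.25 CPM with lead. The groups did not overlap, but the combined libraries differed from each other by more than the lower of them did from lead (log2 difference 1.21 ± 0.42, edgeR adjusted p = 0.831).

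**Figure D3:**
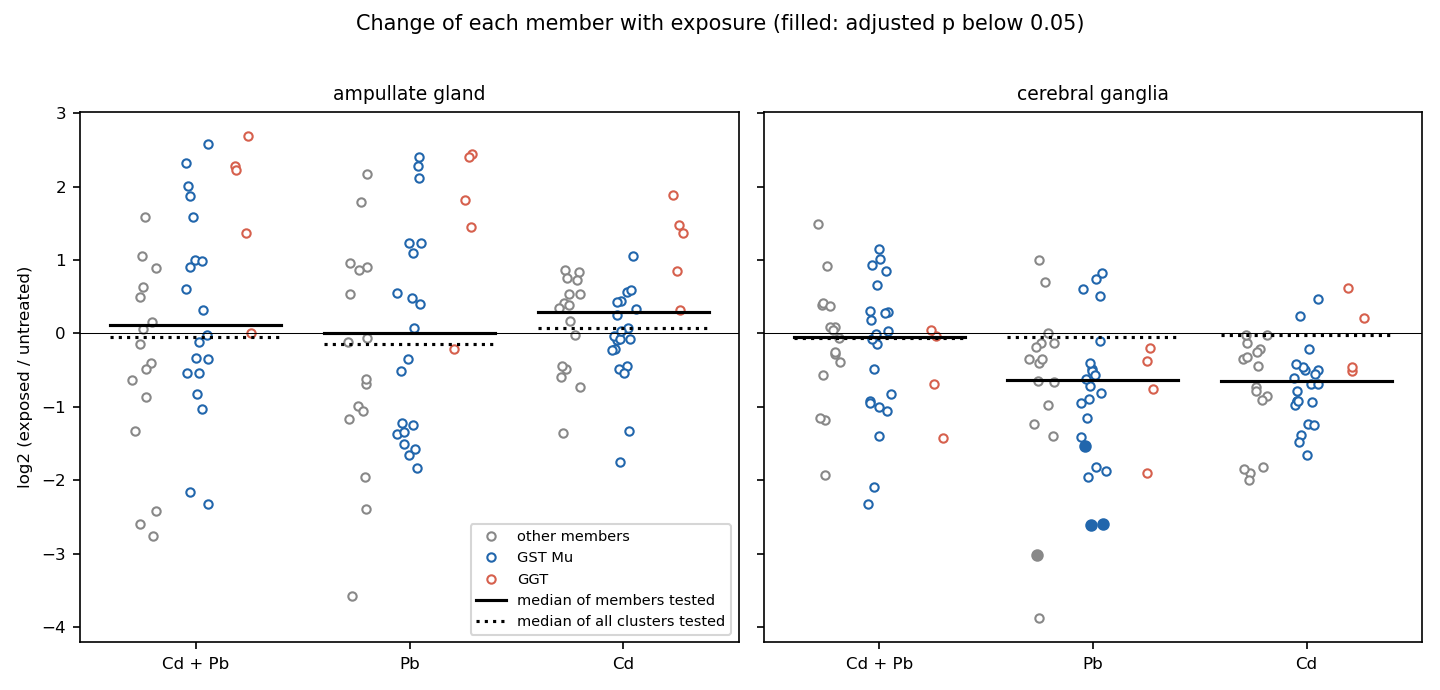
Each point is the log2 change of 1 member against untreated libraries, in ampullate gland (left) and cerebral ganglia (right), with filled points for an adjusted p below 0.05; lines give the medians of the members and of all clusters tested. The 4 filled points lie below 0 in lead ganglia and the gland has none; GGT 58108, listed at 0 in untreated glands, is left out of the points.

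In the ampullate gland no member was called in any exposure. Cadmium called 0 of 44505 clusters (0%), lead 0 (0%) and both metals 0.225%, by edgeR at an adjusted p below 0.05. At an unadjusted p below 0.05 there were 1 member with cadmium, 7 with lead and 6 with both metals, beside 2.86%, 11.9% and 14.9% of all clusters. DESeq2 called 0 members with cadmium, 2 with lead and 2 with both metals, all higher.

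GGT 54981, which matched the GGT 1 of the house spider Parasteatoda tepidariorum, had 70.0 and 32.4 CPM with both metals, 62.7 and 52.3 CPM with lead and 19.2, 31.9 and 37.4 CPM with cadmium, against 7.31, 12.0 and 12.3 CPM in untreated glands. All 7 exposed libraries lay above the 3 untreated ones, as for 2 of the 42 members tested, a share not counted over all clusters. The log2 changes were 2.28 ± 0.49 for both metals (edgeR adjusted p = 0.0993), 2.45 ± 0.49 for lead (edgeR adjusted p = 0.216) and 1.48 ± 0.45 for cadmium (edgeR adjusted p = 1), in comparisons that share the untreated libraries. DESeq2 called this cluster with lead and with both metals. In the ganglia it stood at 4.88 and 4.72 CPM with both metals, 6.13 and 3.02 CPM with lead and 14.9, 5.81 and 6.28 CPM with cadmium, against 8.09, 11.5 and 3.58 CPM in untreated ganglia, with each exposure overlapping the untreated libraries.

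The other GGT clusters were less even. GGT 54983, a cluster of 341 bases whose closest protein is another isoform of the same GGT, had 6.03 and 6.71 CPM with both metals and 4.79 and 5.71 CPM with lead, against 0, 2.10 and 0.845 CPM in untreated glands. The groups did not overlap (log2 changes 2.69 ± 1.22 and 2.41 ± 1.22, edgeR adjusted p = 0.338 and 0.436). GGT 58108, whose closest protein is a GGT of the widow spider Latrodectus hesperus, held 61.3 and 34.4 counts in combined glands and 0 and 29.8 in lead glands, against 0 in each untreated gland. Against a floor of 3 counts in each untreated library its mean was at least 17.7-fold higher with both metals and at least 5.25-fold higher with lead, where 1 of the 2 lead libraries was itself at 0. GGT 54345 had 103 and 26.9 CPM with both metals, 50.7 and 61.2 CPM with lead and 56.6, 73.0 and 114 CPM with cadmium, against 73.1, 64.6 and 56.9 CPM in untreated glands. Its groups overlapped in each exposure. The clusters 54345, 54981, 54983, 49605 and 54982 all had a house spider protein named GGT 1 as their closest match, under several isoform names, and whether they are pieces of 1 transcript was not tested. The major ampullate spidroin clusters summed to between 16559 and 29982 CPM in the 4 glands with lead and between 89.3 and 8500 CPM in the 6 without, and their part in the gland levels was not tested.

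Among the transferases, minor clusters stood above the untreated glands in those with lead, and others stood below, with none called. Mu 59058 had 10.2 and 23.9 CPM with both metals and 16.9 and 19.0 CPM with lead, against 0.731, 4.09 and 5.37 CPM in untreated glands. The groups were apart (log2 changes 2.33 ± 0.75 and 2.40 ± 0.75, edgeR adjusted p = 0.224 and 0.317), while with cadmium the cluster stood at 3.75, 3.52 and 2.40 CPM, within the untreated range. GST 1 53470 had 10.8 and 4.45 CPM with both metals, 9.38 and 13.4 CPM with lead and 5.03, 4.90 and 3.57 CPM with cadmium, against 3.26, 1.87 and 2.42 CPM in untreated glands. Every exposed library lay above the untreated ones (log2 changes 1.59 ± 0.58, 2.18 ± 0.58 and 0.84 ± 0.53, edgeR adjusted p = 0.275, 0.273 and 1), and DESeq2 called it with lead. The protein with a GST C-terminal domain, 54429, had 53.5 and 22.0 CPM with lead, against 13.3, 7.71 and 11.8 CPM in untreated glands. Both lead libraries were higher, and gland lead 1 stood far above the other (log2 change 1.79 ± 0.50, edgeR adjusted p = 0.285). Mu 52528 had 4.28 and 8.50 CPM with both metals and 8.42 and 5.40 CPM with lead, against 0.394, 2.98 and 1.39 CPM in untreated glands. Its libraries with lead lay above the untreated ones (log2 changes 2.01 ± 0.83 and 2.12 ± 0.84, edgeR adjusted p = 0.318 and 0.392).

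In lead glands some of the abundant transferases stood lower than in all untreated glands. Mu 42413 had 21 and 30.8 CPM with lead, against 33.9, 75.5 and 134 CPM in untreated glands. The lead libraries lay below a widely spread untreated group (log2 change -1.65 ± 0.68, edgeR adjusted p = 0.4). GST 1 58114 had 10.6 and 24.2 CPM with lead, against 27.0, 30.2 and 46.2 CPM in untreated glands, without overlap (log2 change -0.99 ± 0.68, edgeR adjusted p = 0.52). Mu 46668 had 32.9 and 38.3 CPM with lead, against 56.1, 49.1 and 47.5 CPM in untreated glands. These groups too were apart (log2 change -0.52 ± 0.65, edgeR adjusted p = 0.737), while the combined and cadmium glands of these 3 clusters overlapped the untreated ones.

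Less abundant members also stood lower. Mu 19693 had 1.08 and 1.40 CPM with lead, against 3.32, 4.62 and 3.20 CPM in untreated glands (log2 change -1.58 ± 1.04, edgeR adjusted p = 0.505). Mu 10699 had 1.34 and 1.09 CPM with lead, against 1.91, 3.86 and 3.50 CPM in untreated glands (log2 change -1.34 ± 1.10, edgeR adjusted p = 0.592). In both clusters the lead libraries lay below the untreated ones. Mu 73660 had 0.957 and 0.486 CPM with lead and 0.148, 0.891 and 0.962 CPM with cadmium, against 1.91, 2.10 and 1.03 CPM in untreated glands. Both exposures lay below them (log2 changes -1.21 ± 1.09 and -1.33 ± 0.96, edgeR adjusted p = 0.626 and 1). With both metals Kappa 43136 had 2.37 and 1.40 CPM, against 6.30, 2.69 and 5.13 CPM in untreated glands (log2 change -1.32 ± 0.73, edgeR adjusted p = 0.395). Mu 21620 had 0.840 and 0 CPM with both metals, against 1.80, 2.40 and 1.27 CPM in untreated glands (log2 change -2.16 ± 1.41, edgeR adjusted p = 0.46). In neither did the combined glands overlap the untreated ones.

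The highest member by FPKM overlapped the untreated glands in each exposure. GST 1 46115 had 104 and 9.64 CPM with both metals, 17.6 and 67.6 CPM with lead and 46.0, 94.6 and 120 CPM with cadmium, against 54.4, 66.3 and 144 CPM in untreated glands. The 2 libraries of the combined group were more than 10 times apart, and summed over all members combined gland 1 had 739 and combined gland 2 264 CPM. Of the 42 members tested, 11 had both combined glands above all untreated ones and 3 below, beside 18.3% and 11.9% of all clusters. For lead it was 10 above and 7 below, beside 19.0% and 11.6%, and for cadmium 4 above and 2 below, beside 5.76% and 3.01%. The median log2 change of the members was 0.11 with both metals, 0.01 with lead and 0.29 with cadmium, and -0.04, -0.15 and 0.07 over all clusters. With GGT 58108 at its bound the cadmium median was 0.21 and the others stayed as given.

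**Figure D4:**
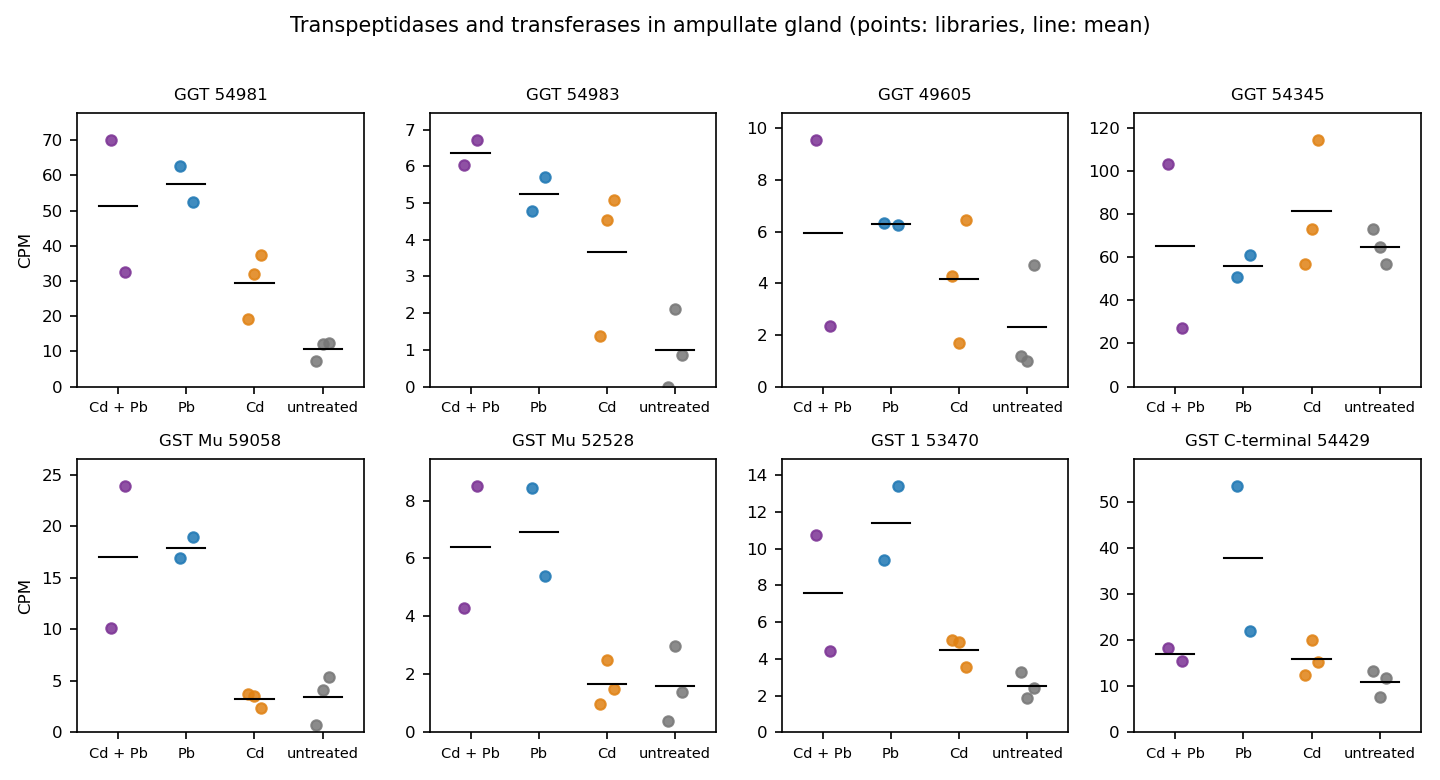
Points give the CPM of each ampullate gland library for 4 GGTs (top) and 4 transferases (bottom), by exposure to cadmium plus lead, lead, cadmium or none, with group means as lines; each panel has its own axis from 0. All 7 exposed libraries of GGT 54981 and of GST 1 53470 lie above the 3 untreated ones, and GGT 54345 overlaps between groups.

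Within the gland the exposures were not told apart by any call among the members. Combined against lead, combined against cadmium and lead against cadmium each called 0 members and 0% of all clusters with edgeR, and 0, 6 and 7 members at an unadjusted p below 0.05, beside 2.03%, 11.3% and 9.25% of all clusters. DESeq2 called 1 member, higher, between combined and cadmium, and 0 in the other comparisons.

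The enzymes that make glutathione were called in no comparison. The modifier subunit 29022 had 12.6 and 12.3 CPM with both metals and 12.3 and 12.7 CPM with lead, against 4.78, 7.07 and 8.21 CPM in untreated glands. The libraries with lead were close to each other and above all untreated ones (log2 changes 0.90 ± 0.49 and 0.91 ± 0.49, edgeR adjusted p = 0.392 and 0.449). Cadmium glands, at 4.83, 8.29 and 9.48 CPM, overlapped them. The longer catalytic cluster 49733 had 14.7 and 3.36 CPM with both metals, 6.13 and 9.41 CPM with lead and 8.24, 14.2 and 21.8 CPM with cadmium, against 5.18, 8.06 and 11.0 CPM in untreated glands. All 3 exposures overlapped the untreated group. In the ganglia the same cluster kept between 8.09 and 12.8 CPM in all 10 libraries.

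The short catalytic cluster 57423 had 1.05 and 2.76 CPM in combined and 2.01 and 1.68 CPM in lead ganglia, against 3.26, 4.47 and 5.37 CPM in untreated ganglia. Both exposures lay below all untreated libraries (log2 changes -1.18 ± 0.53 and -1.24 ± 0.53, edgeR adjusted p = 0.225 and 0.182). Glutathione synthetase 55772, which adds glycine as the last step, had 9.70 and 2.70 CPM with both metals, 4.98 and 5.10 CPM with lead and 11.4, 6.37 and 25.1 CPM with cadmium, against 12.8, 2.40 and 18.7 CPM in untreated glands. The untreated glands covered the range of the exposed ones but for cadmium gland 3. In the ganglia it had 8.65 and 8.27 CPM in combined and 5.38 and 4.53 CPM in lead libraries, against 7.11, 6.51 and 5.99 CPM in untreated ones. The combined libraries lay above and the lead libraries below the untreated group (log2 changes 0.37 ± 0.31 and -0.40 ± 0.31, edgeR adjusted p = 0.505 and 0.46).

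Between the tissues, over the mean of the 4 treatments, most Mu transferases were lower in the gland than in the ganglia. Several GGT members were higher over that mean, but none of the GGT members was called in untreated spiders. For this comparison all 20 libraries were fitted and scaled together. In untreated spiders 7 of the 44 members tested were lower in the gland, all of class Mu, and 0 were higher, where 6.35% of all 51904 clusters were called lower, 3.91% higher and 10.3% in either direction. There were 18 members with an unadjusted p below 0.05, beside 28.1% of all clusters. Over the mean of the 4 treatments, 8 members were higher and 19 lower in the gland, where 15.8% of all clusters were higher, 18.4% lower and 34.1% either. An unadjusted p below 0.05 was found for 30, beside 43.0%.

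Mu 46668 had 55.7, 55.0 and 48.6 CPM in untreated glands, against 329, 428 and 423 CPM in untreated ganglia. The tissues were far apart in each library (log2 difference -2.89 ± 0.52, edgeR adjusted p = 0.00206). Mu 19693 had 3.30, 5.17 and 3.27 CPM in untreated glands, against 45.3, 59.1 and 40.2 CPM in untreated ganglia (log2 difference -3.62 ± 0.71, edgeR adjusted p = 0.00394). Mu 25762 had 0, 0.458 and 0 CPM in untreated glands, against 6.79, 5.08 and 6.90 CPM in untreated ganglia. It was nearly absent from the gland libraries at this depth (log2 difference -5.34 ± 1.27, edgeR adjusted p = 0.0138). The other called Mu clusters were 35951, 22013, 54222 and 21620, with log2 differences of -2.91, -3.33, -2.11 and -3.09 (edgeR adjusted p = 0.00496, 0.0176, 0.0187 and 0.0351). Without untreated gland 3 the count was 4, and DESeq2 called 12 lower and 1 higher.

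Over all treatments 16 of the 22 Mu members tested were lower in the gland and 2, 52528 and 59058, were higher. Among the lower ones were the minor clusters 17547, 80552, 16866, 77905, 78637, 73660, 29171 and 56531. Their log2 differences lay between -3.68 for 80552 and -1.28 for 73660 (edgeR adjusted p between 0.000705 and 0.0467). The calls of 29171 and 56531 held in only 16 and 13 of 26 repeats with another setting or 1 library left out. Microsomal GST 54142 was lower as well (log2 difference -1.74 ± 0.34, edgeR adjusted p = 0.000673). Theta 34283 and Kappa 43136 were not called (log2 differences -0.21 ± 0.27 and -0.53 ± 0.29, edgeR adjusted p = 0.619 and 0.182). Mu 42413 had between 18.7 and 138 CPM in gland libraries (median 54.3) and between 20.8 and 80.1 CPM in ganglia libraries (median 43.5), so that the second most abundant Mu cluster overlapped between tissues. Summed over class Mu, the gland libraries ranged from 104 to 269 CPM (median 182) and the ganglia libraries from 318 to 799 CPM (median 438), with no overlap. Without 46668 the sums were 62.7 to 214 CPM in the gland and 143 to 371 CPM in the ganglia, which overlapped. The spider's own GST 39365 was lower in the gland, at 4.20 to 32.0 CPM (median 16.5), against 19.1 to 104 CPM (median 55.8) in the ganglia (log2 difference -1.75 ± 0.30, edgeR adjusted p = 0.000243). Its relative 42599 was higher in the gland, at 1.77 to 39.6 CPM (median 15.4), against 1.32 to 6.99 CPM (median 4.02) in the ganglia (log2 difference 2.22 ± 0.46, edgeR adjusted p = 0.00125). GST 1 53470 was also higher in the gland, at 2.09 to 12.8 CPM (median 4.36), against 0.154 to 2.89 CPM (median 0.779) in the ganglia (log2 difference 2.71 ± 0.40, edgeR adjusted p = 5.54e-05).

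GGT 54981 averaged 32.6 ± 20.8 CPM in the 10 gland libraries and 6.97 ± 3.73 CPM in the 10 ganglia libraries (log2 difference 2.26 ± 0.29, edgeR adjusted p = 1.48e-05). In untreated spiders it had 7.26, 13.4 and 12.6 CPM in glands, against 8.18, 11.6 and 3.61 CPM in ganglia, which overlap. No GGT member was called in untreated spiders, not counting the clusters named glutathione hydrolase, which are given with the wider pathway. The GGT members summed to 76.5 to 89.4 CPM in untreated glands and 81.7 to 97.8 CPM in untreated ganglia. Over the mean of the 4 treatments GGTs 54983 and 49605 were called higher in the gland too. Their log2 differences were 2.50 ± 0.64 and 1.87 ± 0.41 (edgeR adjusted p = 0.00572 and 0.00194). GGT 54345 stood at 67.3 ± 25.2 and 68.1 ± 15.5 CPM in gland and ganglia. The catalytic and modifier subunits and glutathione synthetase were not called between tissues. The muscle and neural clusters that differ between the tissues, with 109 neural clusters at 923 to 1524 CPM in gland and 2254 to 10650 CPM in ganglia libraries, moved with these differences, and their part was not tested.

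**Figure D5:**
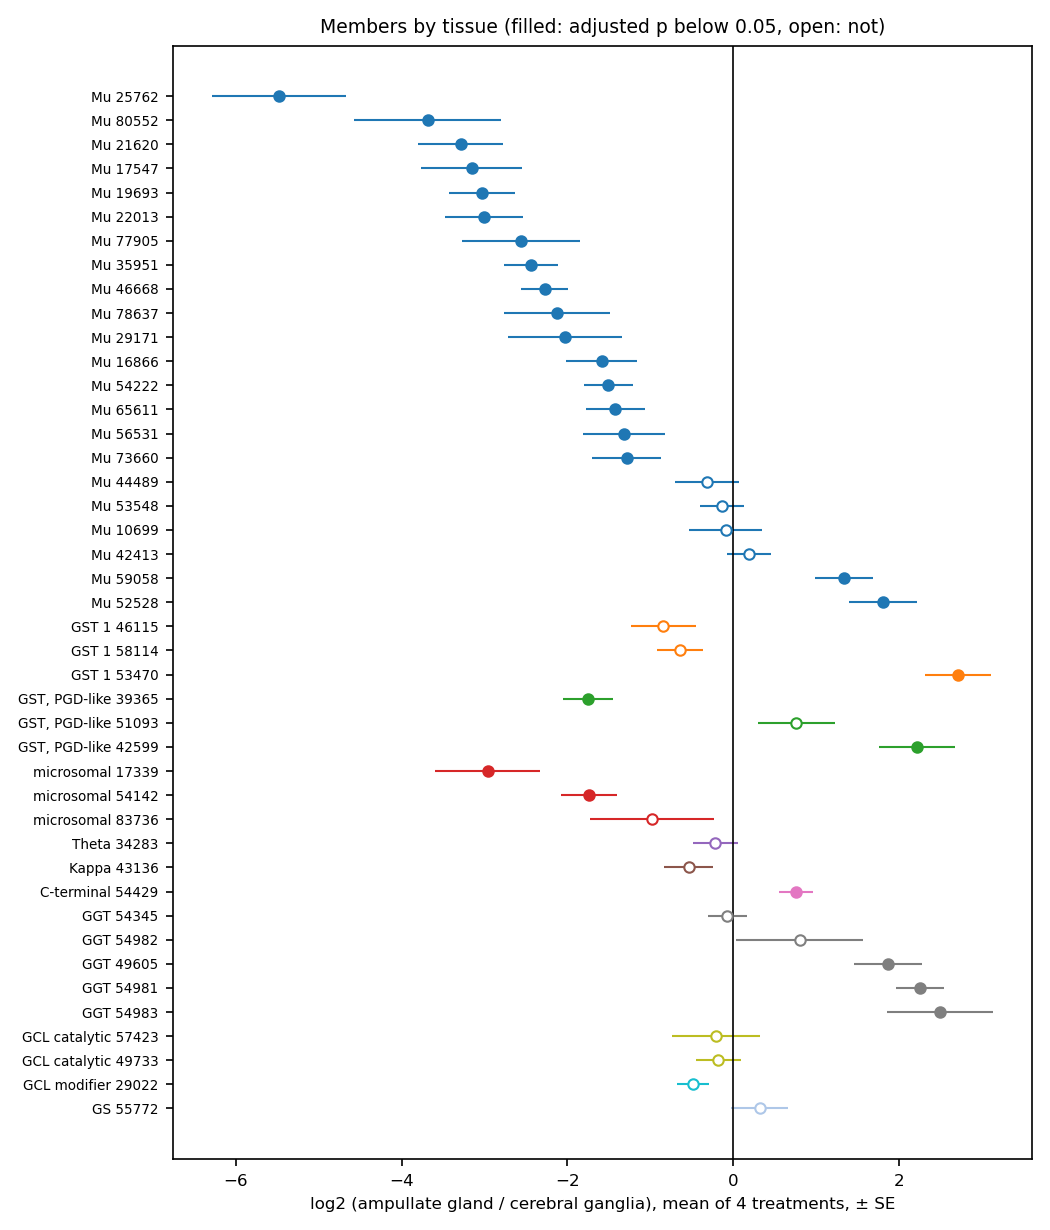
Each row is 1 of the members tested in both tissues, sorted by class, with its log2 ratio of ampullate gland over cerebral ganglia as a mean of 4 treatments and its SE; filled points have an adjusted p below 0.05. Most Mu points lie to the left (16 called lower, 2 higher), and GGTs 49605, 54981 and 54983 lie to the right; GGT 58108 is left out.

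Whether an exposure changed members differently in the tissues was tested in the fit of all 20 libraries. No member and none of the 51904 clusters (0%) passed with edgeR, and 5 members had an unadjusted p below 0.05, beside 6.14% of all clusters. The smallest adjusted p was that of GGT 54981, at 0.523, so a difference between the tissues in its response was not shown.

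The wider pathway was described by a list of 114 further clusters with an arachnid match, of which 93 were tested in the ganglia and 86 in the gland. With lead, 8 rose and 2 fell in the ganglia, against a background of 2.67% higher and 2.24% lower, and 0 were called in the other exposures of either tissue. The following were named with their values known. A cluster matching nuclear factor erythroid 2-related factor 1, of the family of stress-response factors that in mammals and flies control glutathione genes, was 52269. It had 92.7 and 151 CPM in lead ganglia, against 33.2, 12.3 and 21.6 CPM in untreated ganglia (log2 change 2.44 ± 0.46, edgeR adjusted p = 0.0263). Its lead libraries lay above all untreated ones.

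Keap1, which in mammals holds another factor of that family, Nrf2, in check, is represented by cluster 68722. This cluster had 4.82 and 6.30 CPM in lead ganglia, against 0.783, 1.61 and 0.700 CPM in untreated ganglia (log2 change 2.41 ± 0.48, edgeR adjusted p = 0.03). It too rose without overlap. Cluster 45150, also listed with these factors, was not among the clusters called. How the pathway calls depend on single libraries is not given here, and they rest on the same lead libraries as the calls of members. Of 34 multidrug resistance-associated protein clusters tested, 5 rose, among them 67768, with 15.4 and 12.5 CPM in lead ganglia, against 2.41, 3.85 and 2.18 CPM in untreated ganglia (log2 change 2.31 ± 0.40, edgeR adjusted p = 0.0226). A thioredoxin-related membrane protein rose as well, and the clusters that fell were 1 gamma-glutamylcyclotransferase, an enzyme that degrades glutathione inside the cell, and 1 glutaredoxin.

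Between tissues, over the mean of the 4 treatments, 13 of the 97 clusters of the list tested were higher and 35 lower in the gland, beside 15.8% and 18.4% of all clusters. Multidrug resistance-associated proteins accounted for 23 of the lower ones. Of 9 further clusters described as glutathione hydrolase, another name of GGT, 7 were higher in the gland, beside those 15.8%, and 0 lower. Cluster 52144 of these, whose curated match is a bacterial YwrD-like hydrolase, had 6.64, 42.7 and 81.0 CPM in untreated glands, against 1.11, 3.10 and 0.934 CPM in untreated ganglia, each tissue on its own scale. Its log2 difference in the joint fit was 4.71 ± 0.96 in untreated spiders (edgeR adjusted p = 0.00577).

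The 15 clusters with no spider match passed the filter on low counts in no fit. Their 234 counts came to 10 and 59 in combined glands, 75 and 3 in lead glands, 0 in each cadmium gland and 77, 0 and 2 in untreated glands, while ganglia libraries held at most 3. Of the 9 with a nucleotide match, 6 matched the bacterium Sphingomonas. Clusters with a Sphingomonas nucleotide match summed to 552 CPM in gland lead 1 and 928 CPM in combined gland 2, and to at most 45.2 CPM in the other libraries. These counts were few and were not tested.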

How the data were processed

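Per the labels' protocols, RNA was extracted with an RNeasy kit and libraries were made with a SMARTER mRNA kit. No label or file header names the assembler, aligner or counter. The authors deposited estimated counts per transcript cluster (4.99% of values not whole, rounded here) and FPKM values, a unit read from the values. Of 24 columns, 4 exact copies were left out. Clusters were taken by the words of their descriptions. The members and lists were chosen with earlier results of these data known.

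Counts were tested with edgeR 4.0.16 (R 4.3.3, limma 3.58.1) by its quasi-likelihood test with robust dispersion, filterByExpr (minimum count 10), TMM scaling and 1 mean per group. Exposures were fitted in the 10 libraries of a tissue, and tissues and the exposure by tissue interaction in all 20. Benjamini-Hochberg adjustment ran over all clusters tested, with calls below 0.05. Standard errors come from that fit. The procedure was also run on simulated counts with the same spread for every cluster, so that run does not show how the test behaves on these data. Members named are those called, the 2 highest by FPKM in each class, and the 5 largest changes in each direction, tissue and exposure with all exposed libraries on one side and at least 1 CPM on average. Values are not given for every comparison in which a member met this rule. Other clusters were chosen after their values were seen, namely those followed across exposures, the synthesis enzymes and pathway clusters. The same tests were repeated with RLE size factors, without the filter, with 1 CPM required in 3 libraries, with the replicate number as a block, after removing a length trend, with DESeq2 1.42.0, on the compared groups alone, and with every library dropped in turn. Tables and figures were made with Python 3.11.15, pandas 2.3.3, numpy 2.4.6 and matplotlib 3.10.9. Library totals are given with the results, and counts of a few reads carry counting error beyond the spread shown.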

Additional observations from a re-analysis of the deposited data

Results flagged for a closer look

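GGT 49605, the GST C-terminal domain protein 54429 and cluster 51093 had all libraries of an exposure on opposite sides of the untreated libraries in the gland and in the ganglia; how often this held among all clusters was not counted. GGT 49605 differed from untreated by 1.45 ± 0.90 on the log2 scale in lead glands and by -1.90 ± 0.63 in lead ganglia, and the GST C-terminal domain protein 54429 by 1.79 ± 0.50 in lead glands and by -0.67 ± 0.31 in lead ganglia (SE). Cluster 51093 differed by 0.72 ± 1.02 in cadmium glands and by -1.90 ± 0.53 in cadmium ganglia, and by 0.54 ± 1.12 in lead glands and by -0.35 ± 0.55 in lead ganglia. The exposure by tissue test over the 3 exposures together did not pass for any of them, with edgeR adjusted p of 0.812 for 49605, 0.651 for 54429 and 0.893 for 51093.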

How the results depend on the processing

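The 4 members called lower in lead ganglia became 7 with no filter, 8 with DESeq2, 2 with the length trend removed and 1 with only the groups compared. Leaving out 1 library gave 0 to 4, with 0 without either lead library, 1 without untreated ganglia 1 or 3 and 2 without cadmium ganglia 2. Without a filter, members called were 2 in lead and 2 in combined glands, 1 between combined and cadmium glands, 2 in cadmium ganglia, 4 in combined ganglia, 6 between combined and cadmium ganglia, 4 between lead and cadmium ganglia and 2 for exposure by tissue, where none was called with the filter. DESeq2 called 2, 2, 1, 0, 2, 3 and 2 members in the first 7 of these. Between combined and cadmium ganglia leaving out 1 library gave 0 to 2, with 2 without untreated ganglia 2 and 1 without untreated ganglia 3. Between untreated tissues the 7 called became 13 with DESeq2 and 4 to 9 on leaving out 1 library, 4 being without untreated gland 3. The cause of these shifts was not tested.

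With the replicate number as a block, 1 member was called in lead ganglia and 26, against 27 without the block, between tissues over 4 treatments. Same-numbered libraries of different exposures within a tissue had correlations of deviations between -0.22 and 0.23 (median 0.01, 26 pairs). The numbers were therefore not taken to pair the exposures, though in groups of 2 libraries the deviations mirror each other, which limits this check. Whether gland and ganglia libraries of the same number came from the same spiders was not checked. The main tests between tissues treated all libraries as separate. With 2 libraries in each group with lead, small changes of clusters below 1 CPM are not detectable at this depth.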
